A study of Mus musculus with 12 samples.

Results

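Messenger RNA of EMRK1184luc cells kept in vehicle was compared between 6 and 3 days of culture. EMRK1184luc is a B cell lymphoma line that carries a luciferase construct delivered by a lentivirus. Its donor was a female of the Eµ-Myc strain, in which the heavy chain enhancer of B cells controls a Myc transgene. The comparison takes the 3 libraries labelled as DMSO for 6 days against the 3 labelled as DMSO for 3 days, 6 of the 12 libraries of the series. The other 6 come from the same line kept with 5 µM WM-1119 for 3 or 6 days, in 2 groups of 3. WM-1119 blocks KAT6A and KAT6B, enzymes that acetylate histones. All 12 libraries share the cell line, the transgene, the luciferase construct and a high-glucose medium with serum, β-mercaptoethanol and asparagine. The design text calls the 3 libraries of a group biological replicates without naming a culture or day for them. The p-values therefore measure the spread between these samples, which may in part be technical, and results for 1 line need not hold for other lymphomas. Passage, cell density and changes of medium between the days are not given in the labels, so time, density and medium cannot be told apart.

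Library totals were 17928095 to 21712496 counts at 3 days and 22831687 to 41749357 at 6 days in DMSO. The labelled cell type matched its markers. Of the 17 B cell identity markers 16 passed the filter on low counts, and Ms4a1, which encodes CD20, was at 0 in the 6 libraries. The summed level of the list was 7571 to 7768 CPM (counts scaled to a common library total with TMM factors) at 3 days and 7650 to 7749 CPM at 6 days. Cd79a, a signalling chain of the B cell receptor, was at 653 ± 8.51 CPM (SD, n = 3) at 3 days and 642 ± 30.4 CPM (SD, n = 3) at 6 days. Myc was at 1449 ± 73.7 and 1530 ± 100 CPM, with an adjusted p of 0.531, and Kat6a at 170 ± 7.27 and 171 ± 2.53 CPM. The DMSO library of replicate 3 at 6 days stood apart from the rest. On the first principal component of the 6 libraries, with 33.2% of the variance, it lay at 26.7 and the other 5 between -9.0 and -0.4. Fibroblast transcripts were higher in 2 of the 6 libraries. Col1a1, a collagen gene, was at 6.10 and 2.08 CPM in replicates 1 and 2 at 6 days and between 0.454 and 0.975 CPM in the other 4. The sum of the fibroblast and matrix list without Vim, which B cells express, ran from 21.3 to 26.9 CPM at 3 days and from 20.6 to 50.6 CPM at 6 days. In such bulk samples more cells of a type and more RNA per cell cannot be told apart. Of the 16 tested members of the fibroblast and matrix list, edgeR called 0, DESeq2 1 lower and limma voom 0. Their median log2 fold change, 6 against 3 days, was 1.86, with 14 of 16 estimates above 0. At an unadjusted p of 0.05 in edgeR 2 were higher and 1 lower, where 12.9% of all genes passed in either direction. Of 22 macrophage and neutrophil markers 12 were at 0 throughout, C1qa, S100a8 and Mpo among them. That list summed to 150 to 158 CPM in the 6 libraries, with Itgam at 111 to 119, Mpeg1 at 19.7 to 25.8 and Fcgr3 at 13.0 to 14.2 CPM. Of 20 T and NK cell markers 12 were at 0, Cd3e among them, and the list summed to 9.09 to 12.3 CPM. Pecam1, an endothelial marker that leukocytes also carry, was at 90.3 to 104 CPM.

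Few genes were called between the days, and most called changes were small. Of 11997 genes tested, 97 (0.809%) passed an adjusted p of 0.05 in edgeR's quasi-likelihood test, 43 of them higher at 6 days (0.358%) and 54 lower (0.450%). Their median absolute log2 fold change was 0.35, and 82 of the 97 differed by less than 1.5-fold. More than 2-fold changes were called for 1 gene that rose and 4 that fell, all at low levels. Mmp8, a collagenase, went up from 0.183 to 0.946 CPM, and the falls were those of Grrp1, Zfp493, Tmod4 and Slc27a2, a fatty acid transporter that went from 3.08 to 1.41 CPM. Of these 5, Grrp1 kept its call whichever DMSO library was left out, and the other 4 did not. These names, and later ones outside the naming rule, were chosen after their values were seen. All 97 had the 3 libraries of one day on 1 side of the 3 of the other. Over all genes tested that held for 7.75% with 6 days higher and for 8.90% with 6 days lower. An unadjusted p of 0.05 in edgeR was passed by 12.9% of all genes, so genes not called may also have changed. The number of calls depended on single libraries. It was 41 without replicate 1 and 44 without replicate 2 at 3 days, 158 without replicate 1 and 61 without replicate 3 at 6 days. The 2 DMSO groups fitted alone gave 47 calls. Upper-quartile scaling gave 43 calls higher and 95 lower.

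**Figure D1:**
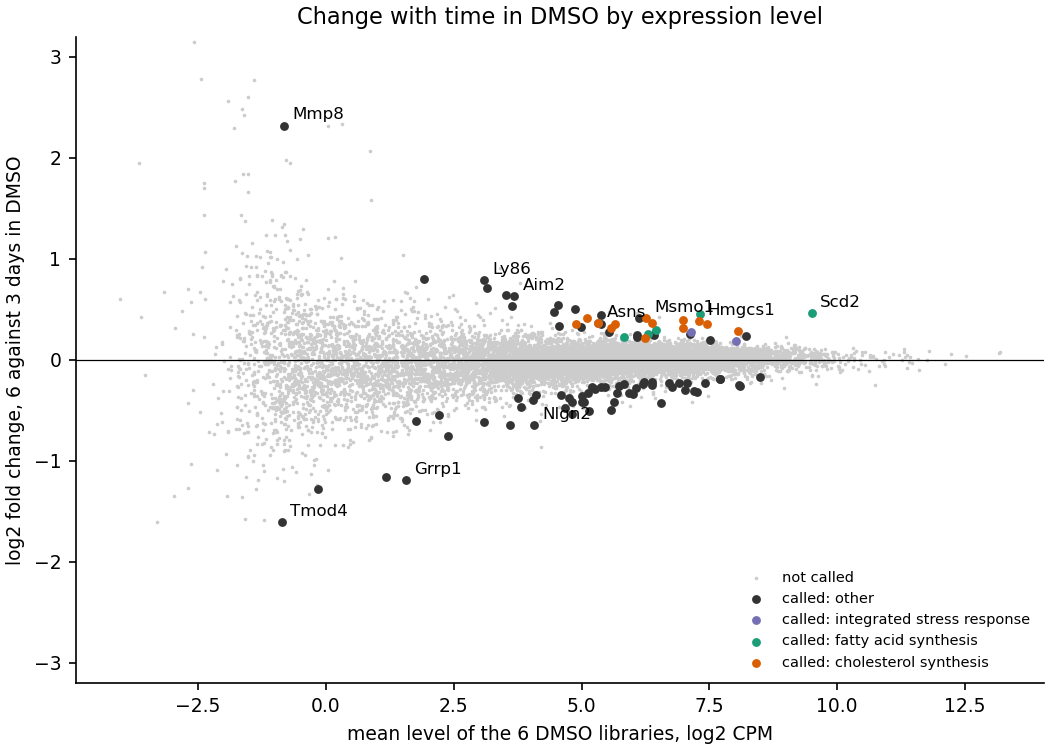
Log2 fold change of DMSO at 6 against 3 days (vertical axis) against the mean level of the 6 DMSO libraries in log2 CPM (horizontal axis), 1 point per gene tested except 1 gene at 0 in DMSO. Grey points were not called, and coloured points are the called members of the lists named in the legend. The 97 called genes lie mostly close to the line at 0, with a median absolute change of 0.35, and the called cholesterol synthesis genes are all above it.

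Cells make cholesterol from acetyl-CoA through the mevalonate pathway, and rapidly dividing cells need it for new membranes. The SREBP transcription factors switch on the genes of this pathway and of fatty acid synthesis when sterols in the endoplasmic reticulum run low. When sterols are plentiful, INSIG proteins hold the SREBP precursors in the endoplasmic reticulum. NF-Y, which binds CCAAT boxes, is a known partner of SREBP at such promoters.

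Of 26 cholesterol synthesis genes tested, 13 were called higher at 6 days (0.358% of all genes were) and 0 lower, and the median log2 fold change of the list was 0.29, against 0.003 over all genes. Within the list 24 of 26 estimates were above 0, and 19 members had all 3 libraries of 6 days above those of 3 days (7.75% of all genes did). DESeq2 called 15 higher and 0 lower and limma voom 13 and 0. The 13 rises lay between 1.17-fold for Dhcr7 and 1.33-fold for Msmo1 and Idi1.

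The promoters of 3 of these genes are shown for the CCAAT letters that NF-Y is known to bind, and that of Hmgcs1 also for an element of SREBP. They are the 250 bases before the RefSeq start in GRCm38.p6, written 5′ to 3′ on the strand of the gene. Capitals mark CCAAT on either strand (ATTGG where it lies on the other strand), and in Hmgcs1 also the sterol regulatory element TCACNCCAC, which begins 137 bases before the start. The regions are chr13:119690101-119690350 on the plus strand for Hmgcs1, chr8:64733579-64733828 on the minus strand for Msmo1 and chr5:28071162-28071411 on the plus strand for Insig1.
Hmgcs1: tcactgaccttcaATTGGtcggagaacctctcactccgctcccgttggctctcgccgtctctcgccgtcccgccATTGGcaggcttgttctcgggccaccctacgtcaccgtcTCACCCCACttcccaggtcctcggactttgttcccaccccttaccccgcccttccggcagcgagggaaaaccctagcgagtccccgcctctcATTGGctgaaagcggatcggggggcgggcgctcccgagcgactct
Msmo1: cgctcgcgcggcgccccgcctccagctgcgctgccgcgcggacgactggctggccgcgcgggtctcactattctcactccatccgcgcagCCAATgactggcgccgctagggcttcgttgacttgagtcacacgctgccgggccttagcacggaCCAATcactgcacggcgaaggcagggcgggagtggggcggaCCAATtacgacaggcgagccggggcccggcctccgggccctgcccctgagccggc
Insig1: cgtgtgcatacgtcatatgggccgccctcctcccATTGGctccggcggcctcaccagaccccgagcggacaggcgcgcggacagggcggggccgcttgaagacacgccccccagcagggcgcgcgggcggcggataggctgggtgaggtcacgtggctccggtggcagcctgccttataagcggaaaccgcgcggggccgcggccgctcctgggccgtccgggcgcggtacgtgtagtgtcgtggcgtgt
Searched on both strands in these 250 bases, CCAAT was found in 10 of the 10 called cholesterol synthesis genes that the RefSeq promoter table holds, and in 17 of the 18 tested ones. It was found in 41.5% of the 9235 tested genes with an entry and in 37.5% of the 27025 genes of the whole table. TCACNCCAC was found in 1 of the 10, Hmgcs1, against 1.21% of the tested genes and 1.22% of the whole table. The letters of CCAAT and TCACNCCAC do not overlap in the Hmgcs1 promoter. These are matches of letters, not measured binding.

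The called genes span early and late steps of the pathway. Hmgcs1, which makes HMG-CoA, was at 143, 145 and 124 CPM at 3 days and at 182, 173 and 180 CPM at 6 days. All 3 later libraries were above all 3 earlier ones, and the rise was 0.38 ± 0.05 on the log2 scale (SE; adjusted p = 0.000668). Idi1, Mvd and Fdps, which act in the steps from mevalonate to the isoprenoid building blocks, rose by 0.41, 0.35 and 0.36 on the log2 scale. Mvk and Pmvk, of the same steps, had estimates of -0.06 and 0.18 and were not called (adjusted p = 0.882 and 0.346). Acat2, Fdft1 and Sqle, which act at the start of the pathway and at the branch to sterols, had estimates of 0.25, 0.27 and 0.22 and did not pass the test, with adjusted p-values of 0.0708, 0.171 and 0.112.

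Next come the enzymes that turn squalene into cholesterol. Cyp51, the lanosterol demethylase, was at 152, 166 and 142 CPM at 3 days and at 196, 190 and 201 CPM at 6 days. The days did not overlap, and the rise was 0.35 ± 0.05 (SE; adjusted p = 0.000750). Msmo1, the next oxidase of the pathway, was at 69.0, 69.4 and 59.9 CPM and then at 93.2, 81.5 and 89.4 CPM, a rise of 0.41 ± 0.07 (SE; adjusted p = 0.00191). Lss, Nsdhl, Sc5d and Dhcr7 rose by 0.35, 0.36, 0.31 and 0.22. Not all late enzymes were called. Ebp, the sterol isomerase, was at 32.5 ± 1.94 and 33.3 ± 0.941 CPM (SD, n = 3). Tm7sf2, a sterol reductase, had an estimate of -0.56 and was not called (adjusted p = 0.143).

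Among the regulators and carriers of sterols, Insig1 was at 115, 116 and 98.5 CPM at 3 days and at 147, 144 and 141 CPM at 6 days. It is itself an SREBP target, and its rise was 0.39 ± 0.06 (SE; adjusted p = 0.000771). Stard4, a cytosolic sterol carrier, rose by 0.31. Srebf2, the SREBP gene of the cholesterol branch, was at 361 ± 11.7 and 404 ± 9.03 CPM (SD, n = 3), with an estimate of 0.16 and an adjusted p of 0.0655. In all 13 called genes the library of replicate 3 at 3 days was the lowest of the 6. The mean level of the list, as the mean deviation of log2 CPM from the gene means, was -0.22 in that library, -0.07 and -0.06 in the other 2 of 3 days and 0.09 to 0.13 at 6 days. Without that library 9 of the 26 were called and the median change was 0.24. Leaving out any other single DMSO library gave 10 to 13 calls. Fdps, Nsdhl, Mvd and Dhcr7 each lost the call in at least 1 of these 6 fits, and the other 9 genes kept it in all 6. Leaving out every library with over 1 CPM of Col1a1 gave a median of 0.24. At 6 days in DMSO this keeps only replicate 3, the library that stood apart. The part of the fibroblast transcripts in the result was not tested.

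**Figure D2:**
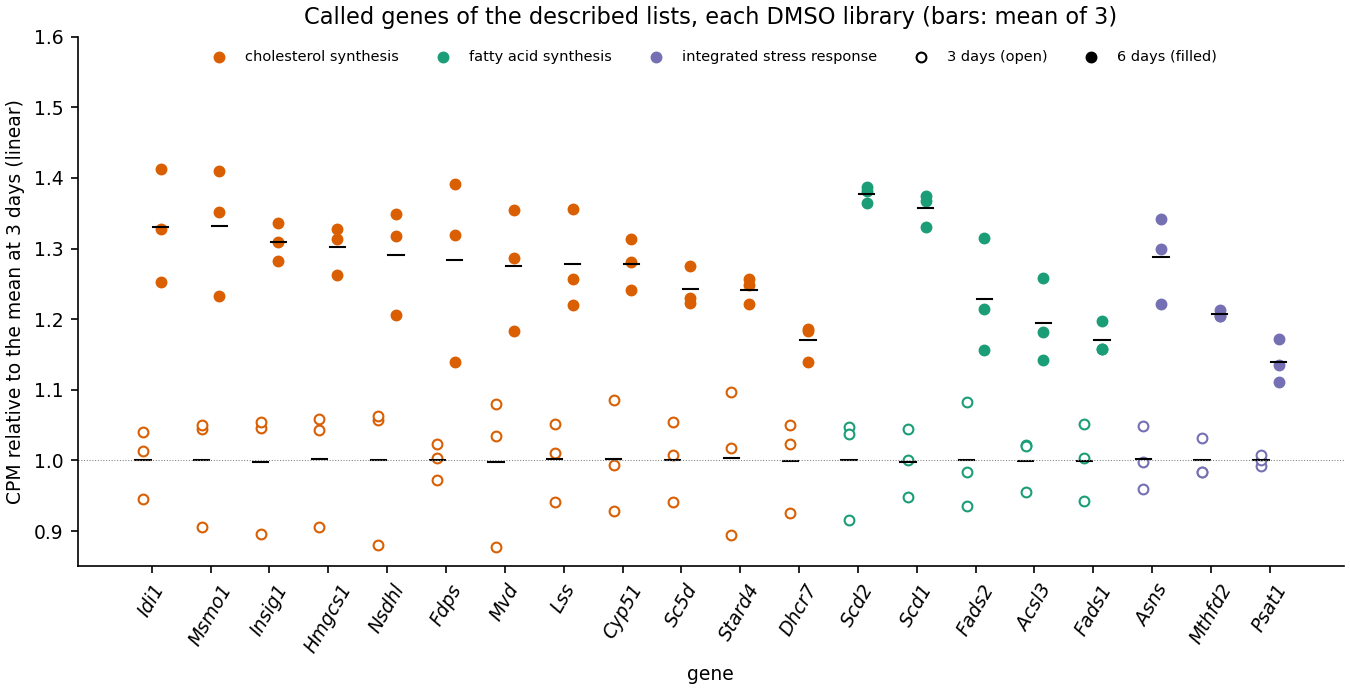
Level of the called genes of the 3 described lists that are reported here in every DMSO library, as CPM divided by the mean of the 3 libraries of 3 days (linear axis). Open points are 3 days, filled points 6 days, and bars are means of 3 libraries. For each of these genes the filled points lie above the open ones, with mean rises of 1.14-fold for Psat1 to 1.38-fold for Scd2.

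Of fatty acid synthesis, desaturases were called higher and the core synthase was not called. The list had 5 of 20 tested members called higher, against 0.358% of all genes, and 0 lower (DESeq2 6 and 0, limma voom 5 and 0), with a median of 0.11. Scd2, a desaturase that puts a double bond into stearoyl-CoA, was at 638, 632 and 558 CPM at 3 days and at 841, 831 and 845 CPM at 6 days. This change, 0.46 ± 0.05 (SE; adjusted p = 4.18e-05), had the smallest p of all genes in the comparison. Scd1, its paralog, was at 129, 136 and 142 CPM and then at 186, 187 and 181 CPM, a rise of 0.45 ± 0.06 (SE; adjusted p = 0.000539). Scd2 lies at chr19:44293676-44306864 and Scd1 at chr19:44394450-44407709 in GRCm38.p6, with their paralog Scd4 between them. The sources used here do not say how reads shared by such paralogs were counted. Fads2 and Fads1, which desaturate polyunsaturated fatty acids, rose by 0.30 and 0.23, and Acsl3, which activates fatty acids with coenzyme A, by 0.26. Fasn, the fatty acid synthase, was at 450 ± 20.9 and 432 ± 23.3 CPM (SD, n = 3; adjusted p = 0.870), and Acaca, which commits acetyl-CoA to the pathway, at 90.6 ± 4.28 and 97.3 ± 0.575 CPM (adjusted p = 0.562). Scd1 and Scd2 were called under all 19 other settings and left-out libraries, whereas Fads2, Acsl3 and Fads1 were not. The list had 2 calls without replicate 1 or 3 at 3 days or replicate 3 at 6 days, and 3 without replicate 2 at 3 days.

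The integrated stress response slows translation and raises ATF4, which induces genes of amino acid synthesis and transport. Of 24 members tested, 3 were called higher and 0 lower by edgeR, by DESeq2 and by limma voom, with a median of 0.12. Of all genes edgeR called 0.358% higher. Within the list 21 of 24 estimates were above 0. With the groups apart 11 members were higher at 6 days and 0 lower, where 7.75% and 8.90% of all genes were. At an unadjusted p of 0.05 in edgeR 13 were higher and 0 lower, where 12.9% of all genes passed in either direction. Asns, asparagine synthetase, was at 33.7, 35.0 and 36.8 CPM at 3 days and at 42.9, 45.6 and 47.1 CPM at 6 days, a rise of 0.36 ± 0.07 (SE; adjusted p = 0.00759). Mthfd2, a mitochondrial enzyme of one-carbon metabolism, went from 127 ± 3.38 to 154 ± 0.426 CPM (SD, n = 3), a rise of 0.28 ± 0.04 (SE; adjusted p = 0.00123). Psat1, of serine synthesis, rose by 0.19 ± 0.04 (SE; adjusted p = 0.0303). The 3 called genes all make amino acids or one-carbon units. Atf4 itself was at 198 ± 4.29 and 223 ± 20.5 CPM, and Ddit3, the CHOP gene, at 4.05 ± 1.48 and 4.25 ± 0.974 CPM, and neither was called. Trib3, a target of CHOP, was under 1.20 CPM or at it in each library and had an estimate of 1.18 with an adjusted p of 0.179. Asns was not called without replicate 1 at 3 days (adjusted p = 0.0664), where 1 member was called, and Psat1 not without any 1 library of 3 days or replicate 3 at 6 days.

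The Asns promoter is shown for the C/EBP-ATF element TGATGNAA, through which ATF4 is known to act. It is the region chr6:7693210-7693459 on the minus strand, 250 bases before the RefSeq start in GRCm38.p6, and the capitals mark the element, which begins 23 bases before the start.
Asns: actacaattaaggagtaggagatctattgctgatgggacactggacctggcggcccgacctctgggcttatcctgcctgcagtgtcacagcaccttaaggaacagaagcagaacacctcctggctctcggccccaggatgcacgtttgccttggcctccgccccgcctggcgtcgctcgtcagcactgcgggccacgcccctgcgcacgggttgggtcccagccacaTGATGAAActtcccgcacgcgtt
On either strand TGATGNAA was found in 5 of the 21 tested list members with a promoter entry, Aars, Asns, Atf3, Gars and Slc7a11, and in 2.38% of the tested genes and 3.91% of the whole table. Of the 5, Asns was the called gene.

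Other genes that rose form no list of their own. Ly86, which encodes MD-1, the partner of the RP105 receptor on B cells, was at 6.64, 6.18 and 5.96 CPM at 3 days and at 9.93, 10.7 and 12.2 CPM at 6 days. This was the largest rise of a called gene that averaged 5 CPM or more, 0.79 ± 0.11 on the log2 scale (SE; adjusted p = 0.000643). Aim2, a sensor of cytosolic DNA, went from 10.1 ± 0.288 to 15.6 ± 0.748 CPM (SD, n = 3), a rise of 0.63 ± 0.08 (SE; adjusted p = 0.000643). Igkc, the constant region of the kappa light chain, was at 7.66, 10.0 and 9.37 CPM and then at 14.1, 15.2 and 13.0 CPM, a rise of 0.64 ± 0.11 (SE; adjusted p = 0.00561). Shisa2 rose by 0.71, Gpt2, an alanine transaminase, by 0.53, Chst11, a chondroitin sulfotransferase, by 0.50, Myo3b, an unconventional myosin, by 0.47 and Rnf125, a ubiquitin ligase, by 0.54. Hes1, a target of Notch signalling, went from 35.5 ± 2.70 to 48.1 ± 3.40 CPM (SD, n = 3; adjusted p = 0.00381). Igkc was not called without replicate 1 at 3 days, and Rnf125 not without replicate 1 or 2 at 3 days or replicate 3 at 6 days. Bach2, a transcription factor of the B lineage, rose by 0.24 and Rel, an NF-kB subunit, by 0.33, each as the 1 called member of its list. Both lost the call without replicate 1 at 3 days, and Rel also without replicate 2 at 3 days or replicate 2 or 3 at 6 days.

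Among the genes that fell, Grrp1 was at 4.18, 4.10 and 4.20 CPM at 3 days and at 2.07, 1.73 and 1.54 CPM at 6 days, a fall of 1.19 on the log2 scale (SE 0.17; adjusted p = 0.000771). Nlgn2, known as a synaptic adhesion protein, was at 20.3, 19.6 and 21.8 CPM and then at 13.7, 13.8 and 11.7 CPM. It fell by 0.65 (SE 0.09; adjusted p = 0.000740), with no overlap between the days. Carmil2, a regulator of actin capping that acts in lymphocyte costimulation, went from 33.4 ± 3.23 to 22.9 ± 2.59 CPM (SD, n = 3; adjusted p = 0.000862). Camk2b, a calmodulin-dependent kinase, fell by 0.51 and Mt3, a metallothionein, by 0.62, while Lama5, a laminin chain, fell by 0.50 and Col27a1, a collagen chain, by 0.43. H19, an imprinted noncoding RNA, was at 34.0, 34.1 and 28.7 CPM and then at 24.7, 23.1 and 24.4 CPM, a fall of 0.42 (SE 0.08; adjusted p = 0.0135). The remaining large falls by the rule were Tmem121b, Micall2, Als2cl, Dmpk and Lax1, at -0.65, -0.48, -0.47, -0.42 and -0.42. In Grrp1, Nlgn2, Carmil2, Mt3, Lama5, Col27a1, Tmem121b, Dmpk and Lax1 the library that stood apart, replicate 3 at 6 days, was the lowest of the 6. Without it Mt3, Lama5 and Tmem121b were not called. These 3, Col27a1, H19 and Als2cl also lost the call without replicate 1 and without replicate 2 at 3 days, and the other 7 falls named here kept it whichever DMSO library was left out.

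**Figure D3:**
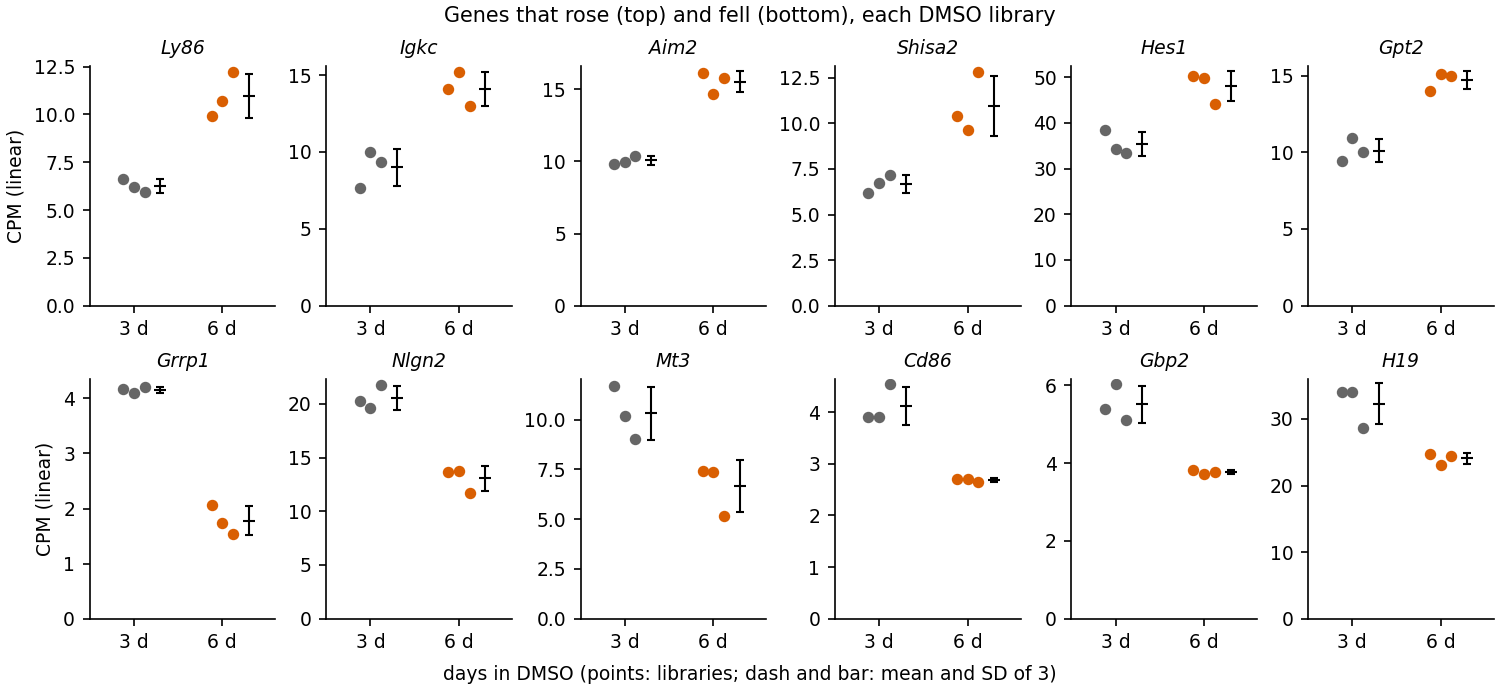
CPM (linear axis from 0) of 6 genes that rose (top row) and 6 that fell (bottom row) in each DMSO library, with the mean and SD of 3 libraries beside the points. The points of 3 and 6 days do not overlap in any panel, and Grrp1 shows the widest gap in proportion, from 4.16 to 1.78 CPM.

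Among the falls were members of immune and signalling lists. Blk, a Src-family kinase of the B cell receptor, went from 57.6 ± 1.32 to 48.3 ± 1.68 CPM (SD, n = 3), and Prkcb, the protein kinase C of that pathway, from 15.4 ± 0.770 to 11.8 ± 0.344 CPM. They were the 2 called of 16 tested members of B cell receptor signalling, and the median of that list was -0.00. Over all genes 0.450% were called lower. Of 35 interferon-stimulated genes tested, Gbp2 and Ifi27 were called lower and 0 higher. The median of these 35 was -0.11, and 4 of their estimates were above 0. DESeq2 called 3 lower and 0 higher, and limma voom 1 and 0. At an unadjusted p of 0.05 in edgeR 11 were lower and 0 higher, where 6.94% of all genes were lower. Gbp2, a guanylate-binding GTPase, was at 5.39, 6.04 and 5.11 CPM and then at 3.81, 3.72 and 3.78 CPM, with an adjusted p of 0.0497. It lost the call under most other settings. Cd86, a costimulatory ligand, fell from 4.12 ± 0.367 to 2.68 ± 0.0379 CPM (SD, n = 3; adjusted p = 0.0311). It was not called when any 1 DMSO library was left out. Of 41 genes of G2 and mitosis, Kif23, a kinesin of cytokinesis, fell by 0.23 on the log2 scale. The median of that list was -0.07, and 5 of the 41 estimates were above 0. With the groups apart 9 members were lower at 6 days and 0 higher, where 8.90% and 7.75% of all genes were. Kifc1 and Kifc5b, near-identical kinesin genes whose reads may be shared, fell by 0.22 and 0.36. Sgk1, a kinase, fell by 0.30, Jak3, a cytokine receptor kinase, by 0.42 and Hk1, a hexokinase, by 0.19. Of the genes in this group Sgk1 kept the call whichever library was left out, and each of the others lost it without at least 1 of the 6.

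The genes that fell had GC-rich transcripts. The median GC content was 56.4% for the falls and 47.7% for the rises, against 49.7% over all genes, from the longest transcript of each gene in GENCODE vM21. Over all tested genes the median log2 fold change ran from 0.06 below 40% GC to -0.08 above 60%. The WM-1119 arm showed 0.04 and -0.04 in the same bins. Of the 454 genes above 60% GC, 9 were called lower and 1 higher, and of the 2036 from 55% to 60% 24 and 1. Over all genes 0.450% were called lower and 0.358% higher. A fit corrected for GC in each library, chosen after seeing the data, called 118 genes, 65 higher and 53 lower. It kept 39 of the 41 rises and 39 of the 53 falls that it could test, and called 14 of the 26 cholesterol synthesis genes. The part of the libraries' GC dependence in the remaining falls was not tested.

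Lists of growth and identity gave 0 or few calls. The 41 other lists held 858 tested members together with the 3 described ones, and in 9 of the 41 lists 12 genes were called, Mthfd2 and Psat1 among them. EdgeR, DESeq2 and limma voom called 0 of 42 MYC targets of ribosome biogenesis, 41 genes of DNA replication, 79 cytosolic ribosomal proteins, 20 p53 targets and 50 nuclear genes of the respiratory chain. Of all genes edgeR called 0.809%, so 0 calls do not set a list of this size apart. At an unadjusted p of 0.05 in edgeR these lists had 9, 7, 2, 3 and 1 members, where 12.9% of all genes passed. Their medians lay between -0.02 and 0.06. Of the DNA replication genes 32 had estimates above 0, and 10 had the groups apart with 6 days higher, where 7.75% of all genes did. The mean level of the cytosolic ribosomal proteins was -0.33 in replicate 3 at 6 days and 0.09 and 0.17 in replicates 1 and 2. At 3 days it was -0.01 to 0.08. Of 30 hypoxia targets edgeR and limma voom called 0 and DESeq2 1, with a median of 0.06. At an unadjusted p of 0.05 in edgeR 6 of them passed, against 12.9% of all genes. Ankrd37, a hypoxia-induced gene, was at 15.6, 13.0 and 1.93 CPM at 3 days and at 21.0, 19.2 and 12.4 CPM at 6 days. Slc16a3, a lactate exporter, was at 32.5, 31.5 and 7.49 CPM and then at 16.4, 13.8 and 9.02 CPM. In both genes replicate 3 was the lowest library at each day, and the days overlapped. Without replicate 3 at 3 days Slc16a3 was called lower, at -1.27 on the log2 scale (adjusted p = 0.00935). The same library of 3 days was the lowest for the cholesterol list, and the part of this in the sterol result was not tested beyond the value without it given above.

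**Figure D4:**
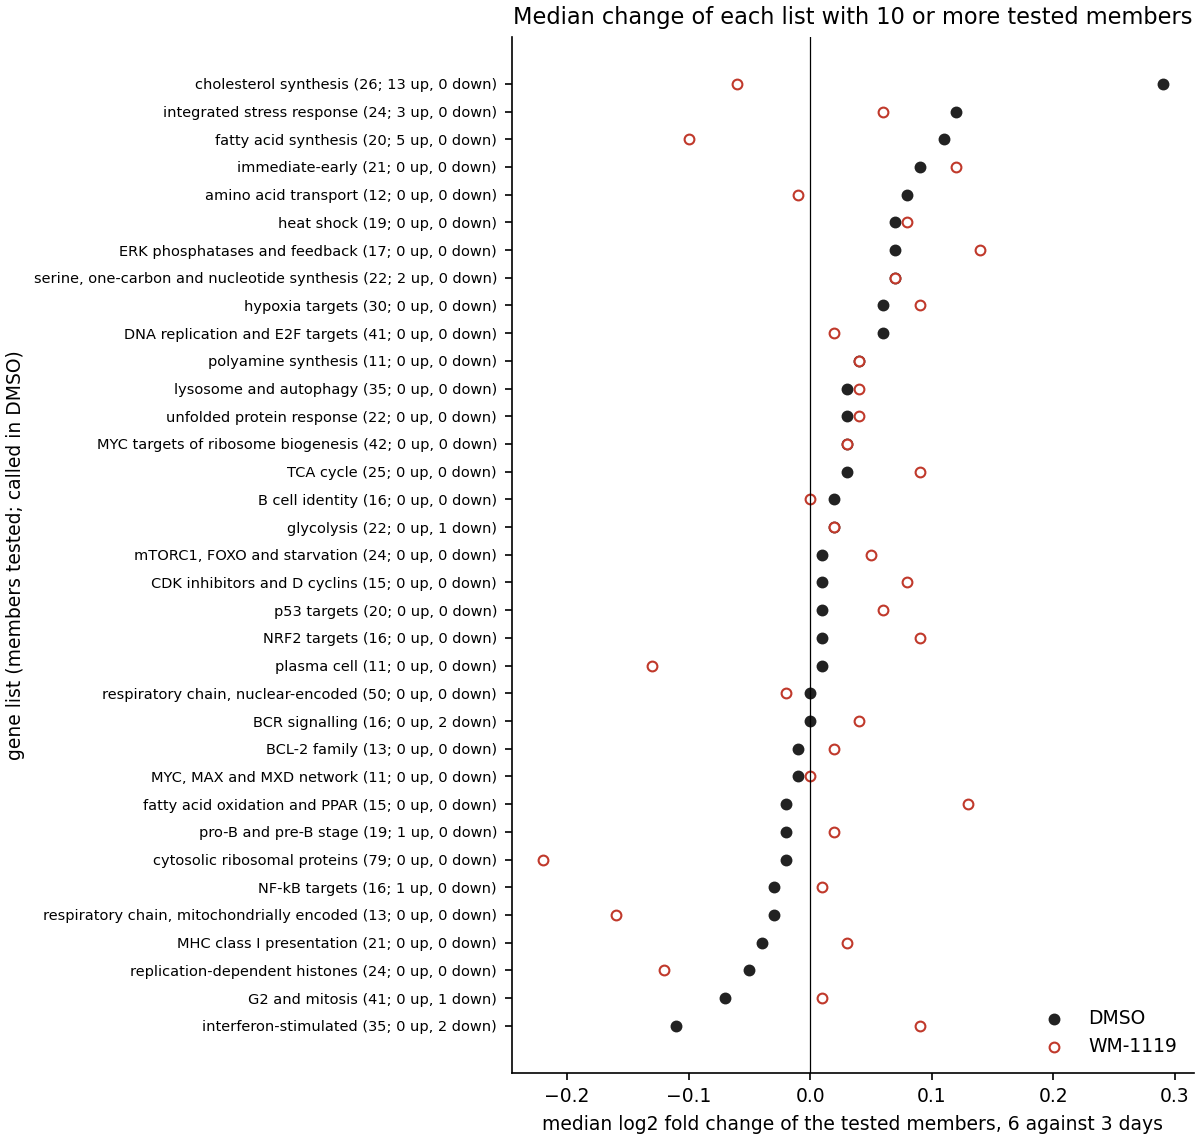
Median log2 fold change of the tested members of 35 gene lists at 6 against 3 days, with filled points for DMSO and open points for WM-1119. The labels give the members tested and those called in DMSO, and the fibroblast and matrix list, with a median of 1.86 and 0 calls, lies outside the plot and is not drawn. Cholesterol synthesis lies at 0.29 in DMSO and at -0.06 in WM-1119, and no other list drawn is above 0.12 in DMSO.

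The same time contrast in the WM-1119 cultures compares libraries that the DMSO contrast does not. The DMSO libraries still enter its calls through the filter, scaling and spread shared in 1 fit. With WM-1119 279 genes (2.33%) were called higher at 6 days and 395 (3.29%) lower. The 2 WM-1119 groups fitted alone gave 1117 calls. Of the 43 genes that rose in DMSO, 5 were called higher and 4 lower with WM-1119, with a median of -0.02. Of the 54 that fell in DMSO, 25 were called lower and 2 higher with WM-1119, and 46 had estimates below 0, with a median of -0.23 against 0.013 over all genes. Nlgn2 fell by 0.65 in DMSO and by 0.66 with WM-1119, and Camk2b by 0.51 and 0.80. Among the rises, Ly86, Shisa2, Chst11 and Aim2 rose in both arms, by 0.79 in DMSO and 0.78 with WM-1119, by 0.71 and 0.66, by 0.50 and 0.49, and by 0.63 and 0.90. The adjusted p for the difference between arms was 0.552 for Aim2 and at least 0.959 for the other 3, with standard errors of that difference of 0.10 to 0.15. Across the 11997 genes the changes in both arms had a Pearson correlation of 0.39, a description across genes that share library preparation and are not independent replicates.

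Called sterol and fatty acid genes were compared between the arms next. The cholesterol synthesis list had a median of -0.06 with WM-1119, and its 1 called member, Tm7sf2, was lower. The test of the difference between the time changes, DMSO minus WM-1119, called 87 genes (0.725%). It shares the DMSO libraries with the comparison that chose the 97 genes. Of the 26 cholesterol synthesis genes it called 10. Among them were 9 of the 13 that rose in DMSO, and Nsdhl, Idi1, Dhcr7 and Stard4 did not pass, with adjusted p-values of 0.0516, 0.226, 0.226 and 0.388. It called all 5 fatty acid genes that rose in DMSO. Scd1 rose from 136 ± 6.15 to 185 ± 3.45 CPM (SD, n = 3) in DMSO and fell from 37.8 to 16.3 CPM with WM-1119, a difference of 1.66 ± 0.09 on the log2 scale (SE; adjusted p = 3.58e-10). Hmgcs1 rose by 0.38 in DMSO and was at 91.6 and 91.5 CPM with WM-1119, a difference of 0.38 ± 0.07 (SE; adjusted p = 0.0143). Igkc rose in DMSO and fell from 4.23 to 2.71 CPM with WM-1119, a difference of 1.26 ± 0.20 (SE; adjusted p = 0.00268). Trib2, a pseudokinase gene, was at 74.6 ± 2.08 and 74.7 ± 4.74 CPM in DMSO (SD, n = 3) and fell by 1.65 with WM-1119. The difference was called for 46 to 217 genes when 1 library was left out, 217 without replicate 3 of DMSO at 6 days.

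**Figure D5:**
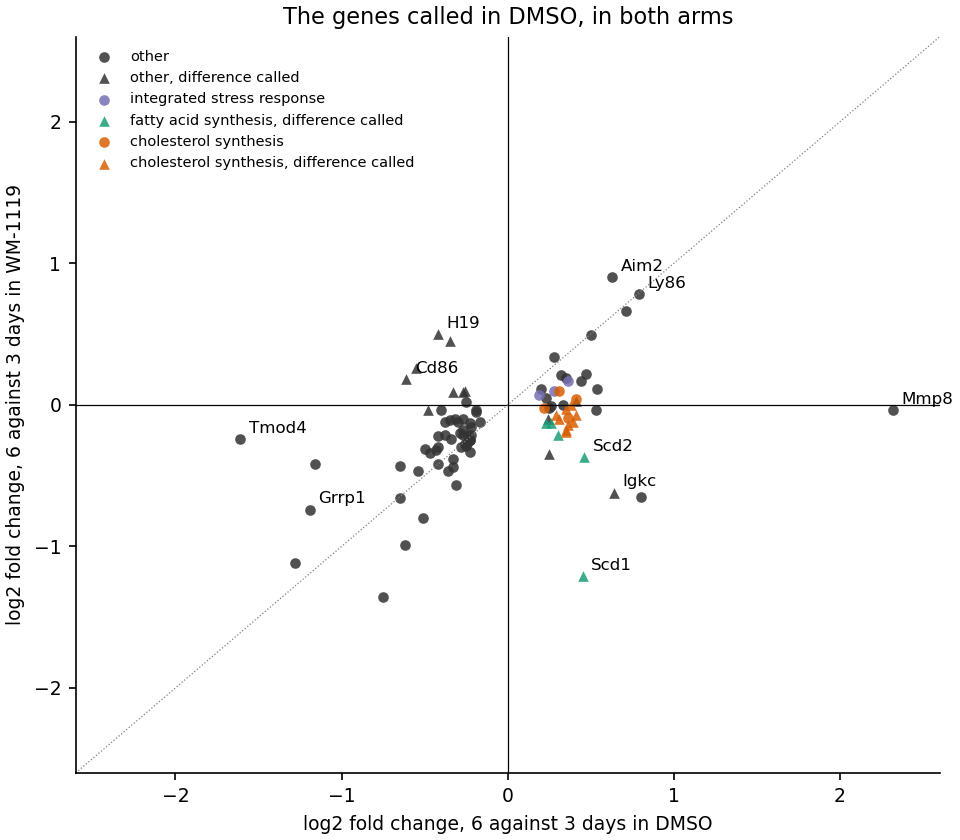
Log2 fold change at 6 against 3 days in WM-1119 (vertical axis) against that in DMSO (horizontal axis) for the 97 genes called in DMSO, with equal change on the dotted line. Triangles mark genes whose difference between the arms was called. Ly86 and Aim2 lie near the dotted line, and the cholesterol and fatty acid genes lie to the right, between 0.10 and -0.37 on the vertical axis apart from Scd1 at -1.21.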

How the data were processed

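Poly(A)-selected messenger RNA was sequenced from TruSeq stranded libraries of RNeasy-isolated RNA, per the labels' protocols. Values in the deposited table are raw read counts, whole numbers for each gene and library. FeatureCounts (version not given) and mm10 are named in the submitters' processing notes. The sources used here do not name the aligner, the strand setting or the treatment of shared reads, so genes with paralogs, or with genes overlapping or antisense to them, are less certain. Of 27179 entries, 874 without a gene identifier (0.305% to 0.362% of counts per library) were left out. RefSeq GRCm38.p6 gave symbols and positions for 25275 of 26305 genes and the promoters.

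All 12 libraries entered 1 edgeR quasi-likelihood fit (edgeR 4.0.16, R 4.3.3) with 4 group means, TMM factors, filterByExpr and robust prior. The fit shares 1 estimate of the spread, with a common biological coefficient of variation of 5.69%. P-values are two-sided and Benjamini-Hochberg adjusted over 11997 genes, called below 0.05. With 3 libraries against 3, an exact permutation test cannot reach a p under 0.1. Levels are CPM on TMM-scaled totals. The largest library was 41749357 counts and the smallest of the 6 compared 17928095. Between any 2 replicates of a DMSO group the counts differed by more than sampling noise, so none was counted as a duplicate.

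The members, 44 gene lists and tests were chosen with earlier results of these data known. Lists with at least 3 called members are described. The text names the 12 called genes that rose most and the 12 that fell most, if they averaged 5 CPM or more and the days did not overlap. It also names the 4 smallest p-values in each direction, those of up to 4 members per described list, and a set of 16 genes. Names outside this rule were chosen after their values were seen. Some members of the lists are counted but are not reported by name here. Alternatives tried were scaling by RLE or by upper quartile, dropping the filter or requiring 1 CPM in 3 libraries, limma voom (limma 3.58.1), DESeq2 1.42.0, the 2 groups fitted alone, the replicate number as a block, thinning of all libraries to the smallest total, leaving out libraries with over 1 CPM of Col1a1, and leaving out each library. A correction for GC content, alone and without DMSO replicate 3 at 6 days, was chosen after seeing the data.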

Additional observations from a re-analysis of the deposited data

Results flagged for a closer look

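For 26 of the 97 genes called in DMSO, the test of the difference between the time changes in DMSO and WM-1119 passed an adjusted p of 0.05 in edgeR. These values are log2 differences, the change in DMSO minus the change with WM-1119, and they share the DMSO libraries with the comparison that chose the genes. Among cholesterol synthesis genes the difference was 0.38 for Hmgcs1, 0.54 for Mvd, 0.50 for Fdps, 0.53 for Lss, 0.38 for Cyp51, 0.48 for Msmo1, 0.41 for Sc5d and 0.50 for Insig1. Among fatty acid genes it was 1.66 for Scd1, 0.83 for Scd2, 0.50 for Fads2, 0.36 for Fads1 and 0.38 for Acsl3. In these 13 genes the level went up in DMSO, and in Scd1 and Scd2 it went down with WM-1119 (adjusted p = 9.26e-10 and 0.000137). The other genes with a higher change in DMSO were Igkc at 1.26, Cmah, which makes an N-glycolyl sialic acid and fell by 0.35 with WM-1119, at 0.60, Sema5a, a semaphorin, at 0.38, and Bach2 at 0.34.

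In 8 genes the change was lower in DMSO. H19 differed by -0.92 and Gimap3, a GTPase of lymphocytes, by -0.80, and both were called lower in DMSO and higher with WM-1119. Gbp2 differed by -0.81 and Cd86 by -0.79. Micall2 differed by -0.44, Cyp4f18, a fatty acid hydroxylase, by -0.42, St3gal1, a sialyltransferase, by -0.37 and Blk by -0.36.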

How the results depend on the processing

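Under RLE scaling, the 1 CPM filter and limma voom the count of calls stayed within 1.5 times the 97 calls (97, 94 and 102), as it did after thinning (109) and after GC correction (118). It was 173 with no filter on low counts (71 higher, 102 lower), 171 with DESeq2 (66 higher, 105 lower) and 47 with the 2 groups fitted alone (26 higher, 21 lower). Upper-quartile scaling called 95 lower. The labels number the replicates 1 to 3 in each group and do not say whether equal numbers share a culture. Deviations of same-numbered DMSO libraries correlated at 0.09, 0.03 and 0.02, and the main fit did not take the numbers as pairs. In each group Col1a1 was lowest in replicate 3, at 0.454 and 0.488 CPM in DMSO and 0.315 and 0.408 CPM with WM-1119. With the replicate block 167 genes were called (72 higher, 95 lower), and with the replicate block in the 2 groups alone 46 (17 lower). Without the samples with over 1 CPM of Col1a1, which leaves 1 library at 6 days, assumed to vary like the other groups, 537 genes were called (114 higher, 423 lower), 7 of them cholesterol synthesis genes. GC correction called 65 genes higher, and with DMSO replicate 3 at 6 days also left out 33 were lower. Leaving out 1 DMSO library gave 41 to 158 calls, 21 to 44 higher and 15 to 114 lower, and 9 to 13 cholesterol synthesis genes. In the WM-1119 arm 674 genes were called, 1117 with its 2 groups fitted alone and 309 to 577 with 1 library left out. The difference between the time changes was called for 46 to 217 genes with 1 library left out. The estimates of Trib2 and Kat6a, not called and near 0, went from 0.00 to -0.01 and from 0.01 to -0.00 under upper-quartile scaling. Of the 97 called genes 24 kept the call in all 19 settings, and in each setting every one of the 97 that was tested kept its sign. Slc16a3 was called lower without replicate 3 at 3 days. The causes of these shifts were not tested. Depth limits the comparison most for genes near 1 CPM, such as Mmp8 and Tmod4.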

Other observations

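Further genes among the 97 called in DMSO belong to none of the described lists and were chosen after their values were seen. Each gene given here lost the call without at least 2 of the 6 DMSO libraries, each left out alone. B4galnt1, which builds complex gangliosides, rose by 0.28 on the log2 scale in DMSO and by 0.34 with WM-1119. St3gal6, a sialyltransferase, went from 36.7 to 46.5 CPM, and Cmah, which hydroxylates a sialic acid, from 77.9 to 92.8 CPM. St3gal1, a sialyltransferase of O-glycans, fell from 40.1 to 33.2 CPM. Mboat2, an acyltransferase of lysophospholipids, went from 28.3 to 35.4 CPM, and Acbd5, a peroxisomal acyl-CoA binding protein, from 62.4 to 74.1 CPM. Of the imprinted genes Peg10 and H19, Peg10 went up from 2.79 to 4.80 CPM (adjusted p = 0.0289) and H19 down from 32.3 to 24.1 CPM (adjusted p = 0.0135).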
